A study of Mus musculus with 11 samples.

Results

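Fetal mouse germ cells at the embryonic stage E13.5 (days after conception) were set against the mean of the stages on either side, E11.5 and E15.5, to find RNAs whose level was highest or lowest at the middle stage. Members were the 9 germ cell arrays of the series, 3 per stage, out of 11 arrays in all. All germ cells were sorted by fluorescence as positive for green fluorescent protein (GFP) driven by Pou5f1, from gonads of a (CBA/CaJ X C57BL/6J)F16+ line crossed with Hsd:ICR(CD-1). The E11.5 samples are labelled male/female, and the E13.5 and E15.5 samples male. The other 2 arrays held the GFP-negative cells of E13.5 male gonads and are described here only for reference. The labels call the samples biological replicates without saying how many embryos went into each, so the p-values measure the spread between these samples. Because E11.5 alone is labelled for both sexes, a difference between E13.5 and E11.5 can come from stage or from sex, and these cannot be told apart.

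Germ cells reach the gonad around E11.5 as proliferating, bipotential cells. In a male gonad they then leave the pluripotent-like programme, stop dividing and take up the programme of prospermatogonia, which includes new DNA methylation and defence against transposons. Nodal, a secreted factor of the TGF-beta family, signals through activin receptors with the co-receptor Tdgf1 (Cripto), and its targets include its own antagonists Lefty1 and Lefty2. In male germ cells of the fetal testis Nodal signalling is known to be transient.

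Values are normalized log2 intensities of the Illumina probe that stands for a gene, and 1 unit is a 2-fold difference. A probe counted as detected at a detection p-value below 0.01. Between 14860 and 18657 of 45281 probes were detected per array. Of 10 germ cell markers, 8 to 10 were detected on each germ cell array, and 0 and 1 on the non-germ arrays. Replicates correlated across genes, which are not independent, at r = 0.976 to 0.979 at E11.5, 0.974 to 0.985 at E13.5 and 0.918 to 0.971 at E15.5. E15.5 replicate 2 stood apart. Its mean log2 intensity over 19 interstitial cell markers was 9.66, with 18 detected, against 6.64 and 6.66 in the other E15.5 arrays, 5.77 to 5.99 at E13.5, 5.80 to 6.42 at E11.5 and 10.56 and 10.61 in non-germ cells. Over 11 fetal Leydig cell markers it was 8.07 against 5.91 and 5.96, and over 19 Sertoli cell markers 8.30 against 6.73 and 7.25, in the other E15.5 arrays. Sertoli markers were also higher in those 2 arrays than at E13.5 (6.05 to 6.47). Levels of these marker lists thus moved with the comparison of E13.5 and E15.5, and their part in the dips was not tested. In the comparison of E13.5 with the flanking mean used below, 5 of 12 tested interstitial markers were called lower and 1 higher (median contrast -1.69), 4 of 5 endothelial markers lower (-1.29) and 2 of 8 Sertoli markers lower and 2 higher (-1.01). Without E15.5 replicate 2 these medians were -1.03, -1.20 and -1.01, with 5 of 10, 3 of 4 and 2 of 7 lower, and 2 of the endothelial markers were dips. Over all genes tested 14.4% were called higher and 12.8% lower. Without that array these shares were 18.3% and 13.1%, and 1.25% were dips. In RNA of sorted pools, fewer cells of a type and less RNA per cell cannot be told apart. Results are therefore also given without E15.5 replicate 2.

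At E13.5, 1428 of 9900 genes tested were higher than the flanking mean (14.4% called) and 1269 were lower (12.8% called) by limma at an adjusted p-value below 0.05, of which 341 and 572 differed by at least 2-fold. This contrast also takes in genes that changed once and then stayed level. Among the higher genes 1132 had their E13.5 mean above both flanking means and 296 had it between them, and among the lower genes 920 had it below both and 349 between. A gene was therefore called a peak or a dip only when E13.5 also differed from E11.5 and from E15.5 in the same direction, by the larger of both limma p-values adjusted over all genes. This left 94 peaks (0.949% called) and 84 dips (0.848% called), of which 79 and 77 were at least 2-fold. The median contrast was 1.56 for the peaks and -1.73 for the dips, beside 0.05 over all genes tested. The E13.5 arrays lay above every flanking array in all 94 peaks and below every one in all 84 dips. Over all genes tested 13.1% had either pattern. Lack of overlap in a called gene therefore only describes its values. Without E15.5 replicate 2 there were 132 peaks (1.42% called) and 117 dips (1.25% called) among 9326 genes, which kept 87 of the 94 peaks and 77 of the 84 dips (1 dip was not tested there). The counts depended on the arrays used: leaving out 1 of the 3 E13.5 arrays left 27 to 34 peaks and 40 to 55 dips. The cause was not tested.

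**Figure D1:**
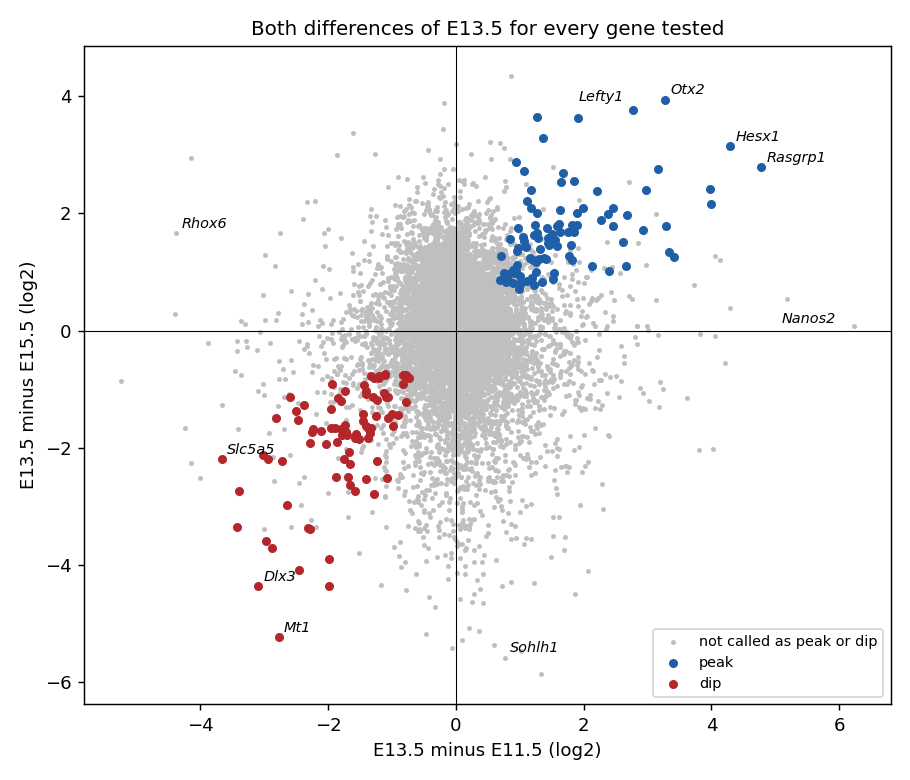
Difference of the E13.5 mean from the E11.5 mean (x axis, log2) against its difference from the E15.5 mean (y axis, log2) for each of 9900 genes. The 94 peaks (blue) lie at the upper right and the 84 dips (red) at the lower left; Nanos2 lies near the x axis because its E13.5 and E15.5 means differ little.

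The peaks did not all start from and return to 1 level. E15.5 was called higher than E11.5 for 19 of the 94 peaks and lower for 17, and for 58 this difference was not called. Over all 9900 genes tested it was called higher for 2653 and lower for 2719, and not called for 4528. The counts for peaks and dips therefore only describe them. No E11.5 array detected 28 of the peaks, no E15.5 array detected 14, and 10 were detected at neither flank. Among the dips E15.5 was called higher than E11.5 for 22 and lower for 17. No E13.5 array detected 21 of the 84 dips, beside 826 of all 9900 genes tested. Peaks on the X chromosome numbered 2 (2.13%) and dips 4 (4.76%), beside 3.79% of all genes tested.

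Nodal pathway transcripts included 1 peak, Lefty1, while the ligand was highest at E13.5 without passing as a peak. Lefty1, the secreted Nodal antagonist, was at 7.24, 6.85 and 7.28 in E11.5 cells, 9.82, 9.88 and 9.98 in E13.5 cells, and 5.82, 6.18 and 6.39 in E15.5 cells (normalized log2 intensity). All 3 E13.5 arrays lay above all 6 flanking arrays, and E15.5 was lower than E11.5 by 0.99 on the log2 scale (95% interval -1.42 to -0.57). The level at E13.5 was 6.81-fold above E11.5 and 13.6-fold above E15.5, where 2 of 3 arrays detected it, with a contrast of 3.26 ± 0.16 (SE; limma adjusted p = 1.09e-05). Without E15.5 replicate 2 the contrast was 3.31.

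For the ligand, the second antagonist and the co-receptor, E13.5 differed more from E15.5 than from E11.5. Nodal itself was at 8.87, 8.82 and 8.86 in E11.5 cells, 9.49, 9.69 and 9.68 in E13.5 cells, and 6.91, 6.30 and 7.98 in E15.5 cells. Its E13.5 arrays were above every flanking array and its contrast was called (1.66 ± 0.30, limma adjusted p = 0.00385), but the rise over E11.5 did not pass, so Nodal was no peak (adjusted p = 0.476). Lefty2, the second antagonist, was at 9.15, 8.07 and 8.80 in E11.5 cells and 9.45, 9.74 and 9.43 in E13.5 cells, and no E15.5 array detected it. E13.5 was at least 11.8-fold above E15.5 and 1.82-fold above E11.5, which did not make a peak (adjusted p = 0.237). The co-receptor Tdgf1 was at 8.12, 7.59 and 7.67 in E11.5 cells, and 7.27, 7.78 and 7.78 in E13.5 cells, so these stages overlapped. It was undetected at E15.5, at least 3.1-fold below E13.5.

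Of 14 measured genes of Nodal and activin signalling, 6 were called higher at E13.5 than the flanking mean, 0 lower and 1 as a peak. Over all genes tested 14.4% were called higher, 12.8% lower and 0.949% as a peak. The list's median contrast was 0.51 beside 0.05 over all genes. The other called members were Gdf3, a TGF-beta ligand (1.28 ± 0.18, limma adjusted p = 0.00117), and the activin receptor Acvr2a (0.54 ± 0.14, limma adjusted p = 0.0205). Foxh1, the transcription factor that carries the SMAD signal to DNA, was lower at each stage. It was at 8.79, 8.64 and 8.50 in E11.5 cells, 6.26, 6.60 and 6.90 in E13.5 cells, and undetected at E15.5 (5.27, 4.97 and 5.22). Over the alternative settings 5 to 7 members were higher and 0 or 1 lower.

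Homeobox genes of the anterior embryo were among the largest peaks. Otx2, a homeobox factor of the early epiblast and forebrain, was at 5.60, 6.33 and 6.66 in E11.5 cells, 9.26, 9.69 and 9.45 in E13.5 cells, and 5.41, 5.32 and 5.85 in E15.5 cells. It was 9.65-fold higher at E13.5 than at E11.5, where 2 of 3 arrays detected it, and at least 11.2-fold higher than at E15.5, where no array detected it (contrast 3.61 ± 0.24, limma adjusted p = 2.43e-05). Hesx1, a homeobox repressor of forebrain and pituitary, was undetected at E11.5 (4.93, 5.02 and 4.88), stood at 9.33, 9.17 and 9.18 in E13.5 cells, and was at 6.26, 5.59 and 6.40 in E15.5 cells with detection on 1 array. Its E13.5 level was at least 8.65-fold above E11.5 and 8.85-fold above E15.5 (limma adjusted p = 1.09e-05). Both genes were undetected in the non-germ cells of the same gonads.

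Lhx1, a LIM homeobox factor, was at 10.09, 10.38 and 10.56 in E11.5 cells, 11.37, 11.82 and 11.67 in E13.5 cells, and 8.04, 7.87 and 8.0 in E15.5 cells. The E13.5 arrays were highest, but E15.5 fell below E11.5 by 2.37 on the log2 scale (95% interval -2.77 to -1.97), so the peak was uneven. Tgif1, a homeobox corepressor of SMAD proteins picked after its values were seen, was at 10.74, 10.57 and 10.35 in E11.5 cells, 13.04, 12.42 and 12.58 in E13.5 cells, and 11.68, 11.47 and 11.58 in E15.5 cells (contrast 1.61 ± 0.17, limma adjusted p = 0.000238). Unlike Otx2 and Hesx1, Lhx1 and Tgif1 were detected on both non-germ arrays, where Tgif1 was at 12.11 and 12.12. In the list of 17 measured homeobox genes, which holds neither Hesx1 nor Dlx3, Otx2, Lhx1 and Tgif1 were the 3 peaks. Six4 was also called higher, and 4 were called lower: Hoxb7, Cdx2, Nkx6-2 and Rhox6. Over all genes tested 0.949% were peaks, 14.4% were called higher and 12.8% lower. The list's median contrast was -0.43.

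**Figure D2:**
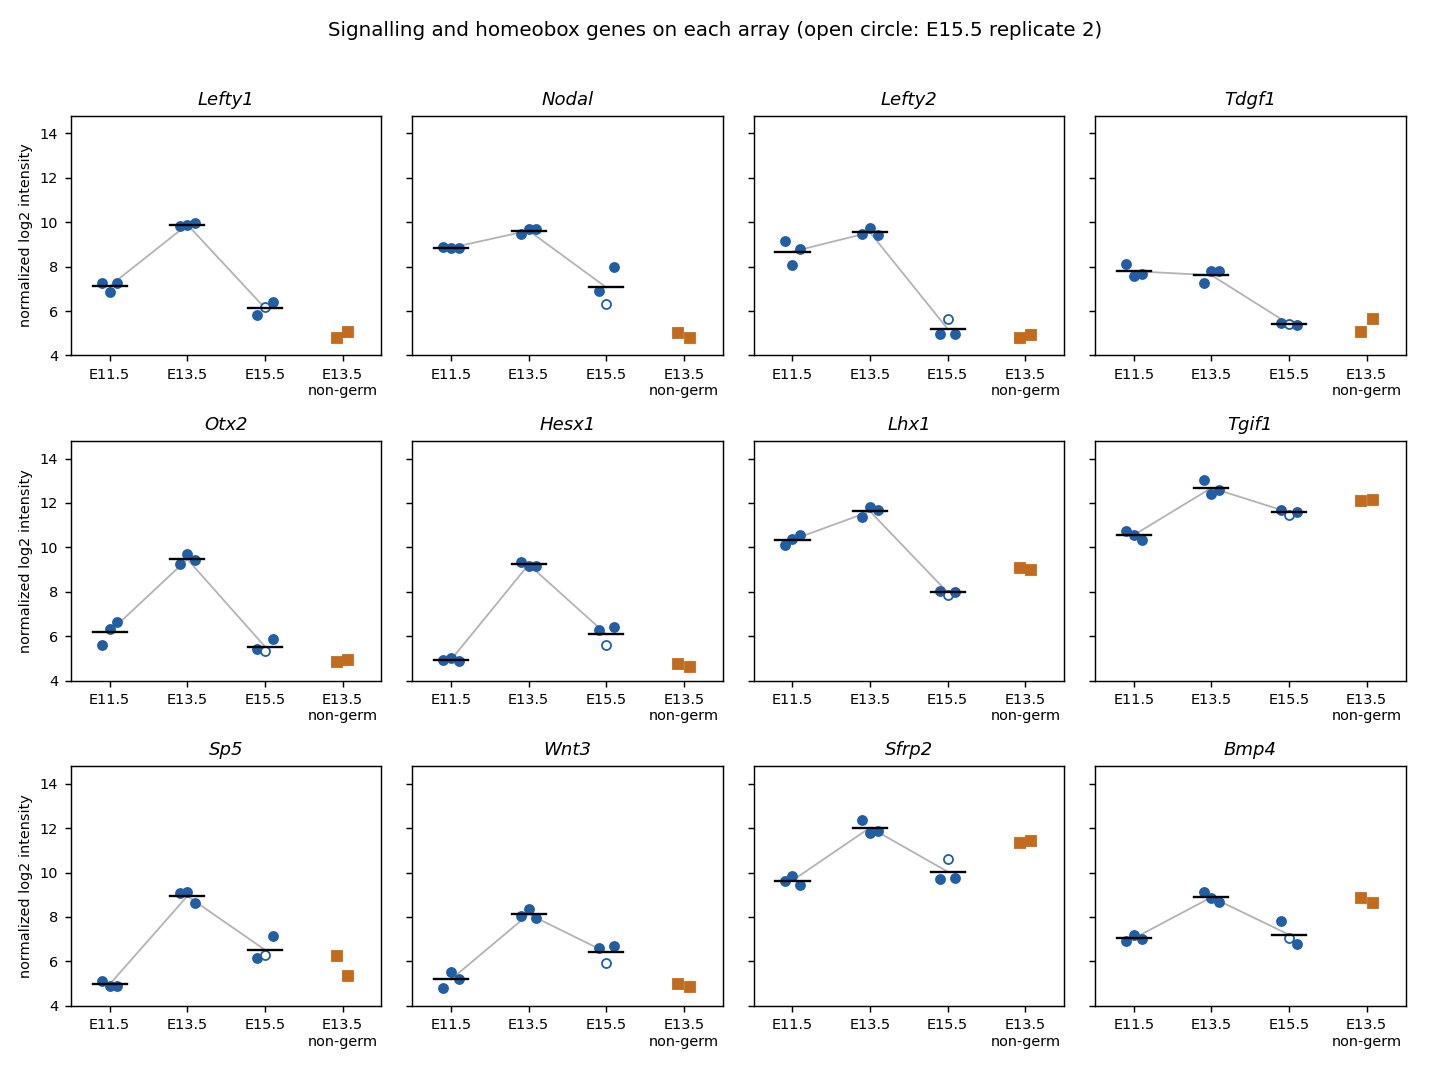
Normalized log2 intensity (y axis) of 12 genes on each array by stage, with germ cells as blue circles (open for E15.5 replicate 2), non-germ cells as orange squares and black bars at the germ cell stage means. Lefty1, Otx2, Hesx1, Sp5 and Wnt3 stand highest on the 3 E13.5 arrays, whereas Tdgf1 is level between E11.5 and E13.5.

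The lists of Wnt and BMP genes held 2 peaks and 1 peak, and the Wnt target Sp5, on neither list, was another. Sp5, a zinc finger factor and a direct target of Wnt signalling, was undetected at E11.5 (5.11, 4.89 and 4.90), was at 9.07, 9.12 and 8.64 in E13.5 cells, and at 6.15, 6.28 and 7.13 in E15.5 cells. E13.5 exceeded E11.5 by at least 7.08-fold and E15.5, where 2 of 3 arrays detected it, by 5.36-fold (contrast 3.20 ± 0.22, limma adjusted p = 3.76e-05). The ligand Wnt3 was undetected at E11.5 (4.80, 5.54 and 5.22), at 8.05, 8.35 and 7.97 in E13.5 cells, and at 6.61, 5.91 and 6.71 in E15.5 cells. Its groups did not overlap, and the rise was at least 4.02-fold over E11.5 and 3.29-fold over E15.5.

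Sfrp2, a secreted Wnt modulator, was at 9.62, 9.84 and 9.46 in E11.5 cells, 12.39, 11.80 and 11.89 in E13.5 cells, and 9.72, 10.63 and 9.77 in E15.5 cells. It was 5.22-fold above E11.5 and 3.97-fold above E15.5, and E15.5 differed from E11.5 by 0.40 (95% interval -0.20 to 0.99). Non-germ cells also held Sfrp2, at 11.32 and 11.41. The ligand Bmp4 was at 6.93, 7.19 and 6.99 in E11.5 cells, 9.13, 8.85 and 8.68 in E13.5 cells, and 7.80, 7.03 and 6.78 in E15.5 cells (contrast 1.77 ± 0.22, limma adjusted p = 0.000669), and at 8.86 and 8.62 in non-germ cells.

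Of all 14 measured Wnt genes, these 2 peaks included, 4 were called higher and 3 lower, with a median contrast of 0.29. Over all genes tested 14.4% were called higher, 12.8% lower and 0.949% as a peak. Axin2, a feedback target of beta-catenin, gave -0.09 ± 0.15 (limma adjusted p = 0.708), and Lef1, a DNA-binding partner of beta-catenin, was lower (-0.91 ± 0.21, limma adjusted p = 0.011). Porcn, the enzyme that lipidates Wnt ligands, was also lower (-2.07 ± 0.18), mainly through E11.5. It was at 9.78, 9.31 and 9.27 in E11.5 cells and undetected at E13.5 (6.02, 5.95 and 6.03). Of 12 BMP genes, 2 were higher and 1 lower, again beside 14.4% and 12.8% of all genes tested. The lower one was Id1, an early response gene of BMP signalling, which no E13.5 array detected and which was at least 8.84-fold lower than at E11.5.

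The promoters of Hesx1 and Sp5 are shown because these genes were undetected at E11.5 and stood among the largest peaks. Each window runs from 250 bases before to 50 after the RefSeq gene start in GRCm38.p6, on the plus strand, 5′ to 3′, at chr14:27000112-27000411 for Hesx1 and chr2:70474673-70474972 for Sp5. Capitals mark the FOXH1 motif AATNNACA in Hesx1 and the TCF/LEF motif CTTTGA in Sp5, searched on both strands.
Hesx1: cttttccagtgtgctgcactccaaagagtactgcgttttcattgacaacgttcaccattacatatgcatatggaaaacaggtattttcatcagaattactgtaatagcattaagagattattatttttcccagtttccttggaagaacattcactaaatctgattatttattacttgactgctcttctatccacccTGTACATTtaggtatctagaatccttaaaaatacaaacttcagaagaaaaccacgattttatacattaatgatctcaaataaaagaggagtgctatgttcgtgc
Sp5: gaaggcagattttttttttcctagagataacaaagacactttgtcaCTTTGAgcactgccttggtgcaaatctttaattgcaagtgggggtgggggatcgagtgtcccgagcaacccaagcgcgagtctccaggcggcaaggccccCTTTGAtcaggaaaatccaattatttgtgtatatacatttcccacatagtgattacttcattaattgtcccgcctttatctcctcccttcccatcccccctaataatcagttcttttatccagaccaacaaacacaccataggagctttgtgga
Hesx1 held 1 FOXH1 match and Sp5 held 2 TCF/LEF matches, which did not overlap other matches. Of 32851 RefSeq promoter windows of the same length, 12.2% held at least 1 FOXH1 match and 1.73% at least 2 TCF/LEF matches. Of 96 windows of peak genes 11 held a FOXH1 match and 14 (14.6%) a TCF/LEF match, beside 7.12% and 11.8% of windows of all genes tested. A match describes the letters only.

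Genes of the Ras route downstream of growth factor receptors included the peaks Rasgrp1, Etv1 and Kndc1. Rasgrp1, an exchange factor that activates Ras, was undetected at E11.5 (5.01, 5.04 and 5.05), at 9.91, 9.87 and 9.67 in E13.5 cells, and at 6.90, 6.45 and 7.72 in E15.5 cells. The E13.5 level was at least 13-fold above E11.5 and 6.93-fold above E15.5 (contrast 3.79 ± 0.24, or at least 3.25 with E11.5 at its bound; limma adjusted p = 2.27e-05). Etv1, an ETS transcription factor induced by FGF signalling, was at 7.95, 7.63 and 8.36 in E11.5 cells, 9.60, 10.01 and 10.06 in E13.5 cells, and 5.90, 7.0 and 5.86 in E15.5 cells. Its peak rests on the brightest of its 3 probes (contrast 2.77 ± 0.28), since the other two gave contrasts of 1.75 and 1.58 and were not called as peaks.

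Kndc1, a neuronal Ras exchange factor, was at 8.46, 8.58 and 8.32 in E11.5 cells, 9.99, 10.25 and 10.15 in E13.5 cells, and 7.44, 6.93 and 7.95 in E15.5 cells. Rasd2, a Ras-like GTPase, and Sos1, the exchange factor of receptor tyrosine kinases, were peaks too, with contrasts of 2.54 ± 0.14 and 0.87 ± 0.13. These 2 were picked after their values were seen. The other Sos1 probe gave 1.08 and was not called as a peak. When every kept probe was tested, the first Sos1 probe was not called as a peak either. The list of FGF pathway and feedback genes includes Rasgrp1 and Etv1, its 2 peaks (beside 0.949% of all genes tested called as peaks). With these included, 6 of its 14 measured members were called higher and 0 lower (beside 14.4% and 12.8% of all genes tested). Their median contrast was 0.56. Among the feedback genes most tied to ERK activity, Dusp4 was higher (1.32 ± 0.28, limma adjusted p = 0.00811) with its E13.5 values of 8.39, 8.79 and 8.91 below those of E11.5. Dusp6 gave 0.72 ± 0.35 (limma adjusted p = 0.154) and Spry4 -0.56 ± 0.37 (limma adjusted p = 0.286), neither of which passed. Without E15.5 replicate 2 the Dusp6 contrast of 1.01 passed the test (limma adjusted p = 0.00149). These Dusp6 values are of its brightest probe. With all arrays its other probes gave 0.65 and -0.41 and were not called. When every kept probe was tested, the 2 probes of Etv5 gave 0.73 ± 0.20 and 0.61 ± 0.18. Both were called higher (limma adjusted p = 0.0287 and 0.0376) and neither was a peak.

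Germ cell genes moved in opposite directions within 1 protein complex. Khdc3, Ooep and Tle6 encode parts of the subcortical maternal complex, which is known from the egg and early embryo. Khdc3 was at 5.34, 5.74 and 5.54 in E11.5 cells, where it was undetected, 8.65, 8.80 and 8.64 in E13.5 cells, and 5.95, 5.71 and 6.15 in E15.5 cells. It was at least 5.97-fold higher at E13.5 than at E11.5 and 6.77-fold higher than at E15.5, where 1 of 3 arrays detected it (limma adjusted p = 1.09e-05). Ooep was at 9.29, 9.44 and 9.24 in E11.5 cells, 10.18, 10.73 and 10.39 in E13.5 cells, and 8.42, 7.89 and 8.35 in E15.5 cells (contrast 1.66 ± 0.17, limma adjusted p = 0.00025). Tle6 was lowest at E13.5, with 8.05, 8.0 and 8.16 in E11.5 cells, 5.15, 5.95 and 6.24 in E13.5 cells, and 8.69, 9.22 and 9.60 in E15.5 cells (contrast -2.84 ± 0.26, limma adjusted p = 0.000139; 1 of 3 E13.5 arrays detected it). Nlrp5, a further member, was not called by the contrast (0.11 ± 0.16, limma adjusted p = 0.664). Nor were Padi6 (-0.56 ± 0.22, limma adjusted p = 0.0951) and Zbed3 (-0.78 ± 0.52, limma adjusted p = 0.297). Padi6 was undetected at E13.5 and differed there from E15.5 by -1.14 (limma adjusted p = 0.00562). Thus 3 of 6 tested members were called as a peak or dip, beside 0.949% and 0.848% of all genes tested. The complex was picked after its values were seen, and Khdc3 and Ooep were undetected in non-germ cells whereas Tle6 was detected on both non-germ arrays.

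Among meiosis genes there was 1 peak and 1 dip. Smc1b, the meiotic cohesin subunit, was at 7.91, 8.46 and 7.93 in E11.5 cells, 9.45, 9.25 and 9.49 in E13.5 cells, and 8.04, 8.12 and 8.38 in E15.5 cells (contrast 1.26 ± 0.16, limma adjusted p = 0.000829). Crabp1, a carrier of retinoic acid, was at 7.39, 7.42 and 7.25 in E11.5 cells, undetected at E13.5 (5.39, 5.97 and 5.50), and at 7.16, 6.83 and 7.71 in E15.5 cells, so that E13.5 was at least 2.28-fold and 2.1-fold lower than at those stages. Of 17 measured genes of meiosis and retinoic acid response 5 were higher and 2 lower, beside 14.4% and 12.8% of all genes tested. Without E13.5 replicate 2 or 3 there were 3 higher and 1 lower. Over all genes tested, 761 and 736 were then higher and 746 and 789 lower, against 1428 and 1269. Sycp1, of the synaptonemal complex, was one of the higher genes (1.35 ± 0.24) but levelled off after E13.5, with 8.29, 8.41 and 8.04 in E13.5 cells against 8.84, 7.84 and 8.37 in E15.5 cells. Mcmdc2, needed for meiotic recombination and on no list, was a peak whose flanks differed by -0.17 (95% interval -0.51 to 0.17), at 7.43, 7.18 and 7.48 in E11.5 cells, 9.53, 9.54 and 9.67 in E13.5 cells, and 7.04, 7.19 and 7.34 in E15.5 cells (contrast 2.30 ± 0.13, limma adjusted p = 1.78e-05).

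Pluripotency and male germ cell genes had their E13.5 mean between the flanking means for 15 of 19 and 12 of 17 measured genes. Other lists varied, with 26 of 31 in DNA replication and 15 of 20 in piRNA and genome defence. Mitosis had 8 of 25 and cytosolic ribosomal proteins 3 of 19. The share over all genes tested is not given, so these counts only describe the lists. Of the pluripotency genes 8 were called higher and 1 lower than the flanking mean, beside 14.4% and 12.8% of all genes tested, and 0 were peaks. Leaving out any 1 E13.5 array left 4 higher. Over all genes tested, leaving out E13.5 replicate 1, 2 or 3 left 865, 761 and 736 higher, against 1428 with all arrays. Esrrb, an orphan nuclear receptor (1.02 ± 0.16, limma adjusted p = 0.00205), and Nanog, a homeobox factor (0.67 ± 0.21, limma adjusted p = 0.0392), had their E13.5 means between their flanks. The demethylating enzyme Tet1 was at 8.98, 8.51 and 8.86 in E11.5 cells, 9.75, 9.30 and 9.55 in E13.5 cells, and 6.67, 5.67 and 6.89 in E15.5 cells, above both flanks but not a peak (adjusted p = 0.378). The sorting gene Pou5f1 gave -0.06 ± 0.15 (limma adjusted p = 0.793). Of the male germ cell genes 5 were higher and 6 lower, and the 1 peak was Lhx1. Nanos2, the RNA-binding repressor that sets male fate, was undetected at E11.5 and stood at 11.58, 11.60 and 10.96 in E13.5 cells and 11.59, 10.93 and 11.39 in E15.5 cells, with a contrast of 3.15 ± 0.20 and no peak.

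Further large peaks had varied roles. Mgst2, a microsomal glutathione transferase, was undetected at E11.5 (5.85, 5.26 and 5.33), at 9.42, 9.68 and 9.33 in E13.5 cells, and at 7.13, 6.75 and 8.07 in E15.5 cells, at least 10.3-fold and 4.47-fold higher than at the flanks. Dnaic1, a dynein chain of motile cilia, was at 6.79, 6.52 and 5.82 in E11.5 cells, 9.16, 9.46 and 9.44 in E13.5 cells, and 6.72, 6.30 and 7.81 in E15.5 cells. Pip4k2a, a phosphoinositide kinase, was at 7.42, 7.68 and 7.93 in E11.5 cells, 10.35, 10.38 and 10.32 in E13.5 cells, and 8.54, 7.99 and 8.57 in E15.5 cells. The contrasts of these 3 genes were 3.08 ± 0.27, 2.69 ± 0.32 and 2.33 ± 0.17 (limma adjusted p at most 0.000551). Mustn1, a small nuclear protein known from muscle, had a contrast of 2.20 ± 0.23. Cthrc1, a secreted collagen-related protein, had 2.34 ± 0.24 and was no longer a peak without E15.5 replicate 2 (adjusted p = 0.0801).

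Stress and survival lists gave 1 peak each. Trib3, a pseudokinase induced by amino acid stress, was undetected at E11.5 and at 7.31, 7.43 and 7.76 in E13.5 cells, at least 2.61-fold higher; without E15.5 replicate 2 its peak was lost (adjusted p = 0.0543). Bik, a BH3-only protein of apoptosis, was undetected at E11.5 and at 7.39, 7.22 and 7.37 in E13.5 cells, against 5.15, 6.45 and 5.35 in E15.5 cells. Its contrast was 1.65 ± 0.28 (limma adjusted p = 0.00299). Among 19 cytosolic ribosomal protein genes Rpl22 alone was called, as a peak of 0.80 ± 0.13, with all 3 E13.5 arrays above 11.31, 11.43 and 11.48 in E11.5 cells and 11.24, 11.34 and 11.51 in E15.5 cells.

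Turning to the dips, the metallothioneins Mt1 and Mt2, small proteins that bind zinc and copper, were both lowest at E13.5. Mt1 was at 8.80, 7.94 and 8.05 in E11.5 cells, 5.89, 5.12 and 5.45 in E13.5 cells, where no array detected it, and 10.49, 10.61 and 11.06 in E15.5 cells. It was at least 4.28-fold lower than at E11.5 and at least 23.5-fold lower than at E15.5, with a contrast of -4.00 ± 0.24, or -3.33 with E13.5 at its bound (limma adjusted p = 2.27e-05). E15.5 exceeded E11.5 by 2.46 (95% interval 1.82 to 3.09). Mt2 was at 7.68, 7.37 and 7.13 in E11.5 cells, 5.09, 4.94 and 5.44 in E13.5 cells, again undetected, and 6.14, 6.83 and 7.52 in E15.5 cells. It was at least 2.34-fold and 1.59-fold lower than at the flanks (contrast -1.96 ± 0.28, limma adjusted p = 0.00119), and its dip was lost without E15.5 replicate 2 (adjusted p = 0.0514).

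In the non-germ cells Mt1 was at 7.41 and 7.55 and Mt2 was undetected. Mtf1, the zinc-sensing factor that drives metallothionein transcription, was at 7.39, 7.40 and 7.25 in E11.5 cells, 7.36, 7.52 and 7.65 in E13.5 cells, and 7.56, 7.26 and 7.79 in E15.5 cells (contrast 0.07 ± 0.15, limma adjusted p = 0.768). Of metal transporters, picked after their values were seen, the iron exporter Slc40a1 was a dip (-1.35 ± 0.13, limma adjusted p = 0.000199), and the copper importer Slc31a1 (1.21 ± 0.17) and the magnesium transporter Slc41a1 (1.72 ± 0.16) were peaks. The zinc exporter Slc30a1, another metal-induced gene, was not called (-0.48 ± 0.20, limma adjusted p = 0.107). The zinc transporter Slc39a10 was called higher (0.45 ± 0.13, limma adjusted p = 0.035) but was no peak, and its E13.5 and E11.5 arrays overlapped. In the list of 21 genes of glutathione, thioredoxin and metallothionein, 3 were higher and 5 lower, with a median contrast of 0.03. Over all genes tested 14.4% were higher and 12.8% lower.

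The Mt1 and Mt2 promoters are shown because both genes dipped together. The windows run from 250 bases before to 50 after the RefSeq gene start in GRCm38.p6, plus strand, 5′ to 3′, at chr8:94178839-94179138 for Mt1 and chr8:94172368-94172667 for Mt2. Capitals mark the core of the metal response element, TGCGCNC or TGCACNC, on either strand.
Mt1: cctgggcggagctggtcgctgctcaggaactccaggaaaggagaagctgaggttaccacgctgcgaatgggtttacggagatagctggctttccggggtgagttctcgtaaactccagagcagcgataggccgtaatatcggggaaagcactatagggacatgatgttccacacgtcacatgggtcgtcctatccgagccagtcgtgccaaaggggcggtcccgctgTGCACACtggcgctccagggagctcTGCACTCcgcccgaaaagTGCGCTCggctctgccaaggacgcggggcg
Mt2: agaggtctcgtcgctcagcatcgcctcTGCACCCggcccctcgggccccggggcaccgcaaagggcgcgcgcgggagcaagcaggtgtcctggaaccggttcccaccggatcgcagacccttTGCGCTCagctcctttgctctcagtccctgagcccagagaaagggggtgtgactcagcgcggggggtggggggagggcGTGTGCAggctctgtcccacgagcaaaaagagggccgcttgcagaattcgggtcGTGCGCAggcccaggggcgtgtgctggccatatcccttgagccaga
There were 3 matches in Mt1 and 4 in Mt2. Windows with at least 3 matches made up 1.97% of all 32851, and those with at least 1 made up 25.7%. Among windows of dip genes 34.2% held at least 1 match, beside 36.9% for all genes tested.

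H2-D1 and H2-Q5, 2 genes of antigen presentation, were dips. H2-D1, a classical class I heavy chain, was at 7.96, 7.91 and 7.82 in E11.5 cells, 5.94, 5.91 and 5.98 in E13.5 cells, where it was undetected, and 7.46, 7.74 and 7.59 in E15.5 cells. It was at least 3.32-fold lower than at E11.5 and 2.7-fold lower than at E15.5 (contrast -1.81 ± 0.12, limma adjusted p = 2.48e-05). H2-Q5, a related class I gene picked after its values were seen, was at 6.84, 6.94 and 7.20 in E11.5 cells, undetected at E13.5 (5.77, 5.43 and 5.67), and at 7.42, 7.66 and 7.28 in E15.5 cells. Class I genes are close copies and a probe can take up RNA of another, so these 2 are uncertain as separate genes. The other tested genes of this kind, also picked after their values were seen, were no dips. H2-K1, the other classical heavy chain, gave -0.44 ± 0.29 (limma adjusted p = 0.285) with overlapping stages. H2-Bl was at 9.67, 9.16 and 9.82 in E11.5 cells, 5.28, 5.55 and 6.18 in E13.5 cells, and 6.37, 5.50 and 5.75 in E15.5 cells, a single fall. B2m, the light chain of class I molecules, had another course, undetected at E11.5, at 6.27, 6.18 and 6.28 in E13.5 cells, and at 9.20, 10.28 and 9.13 in E15.5 cells. Tapbp, which loads peptides on class I, gave -0.07 ± 0.11 (limma adjusted p = 0.651).

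The list of imprinted genes, which does not hold every imprinted gene, included 2 dips, and 0.848% of all genes tested were dips. Of 19 measured, 7 were called lower and 1 higher (beside 12.8% and 14.4% of all genes tested), 10 had their E13.5 mean below both flanks, and the median contrast was -0.26. Without E15.5 replicate 2 the median was -0.08, with 7 lower and 3 higher, and without E13.5 replicate 1 there were 4 lower. Over all genes tested 979 were lower without E13.5 replicate 1, against 1269 with all arrays. The dips were Grb10, an adaptor that restrains insulin signalling, and Slc38a4, an amino acid transporter. Slc38a4 was at 10.56, 10.61 and 10.65 in E11.5 cells, 8.33, 8.25 and 8.38 in E13.5 cells, and 10.27, 9.99 and 10.48 in E15.5 cells, 4.88-fold and 3.8-fold lower than at the flanks (limma adjusted p = 2.34e-05). Grb10 was at 11.54, 10.59 and 10.70 in E11.5 cells, 8.61, 8.77 and 9.50 in E13.5 cells, and 12.45, 13.51 and 12.62 in E15.5 cells (contrast -2.94 ± 0.31, limma adjusted p = 0.000283). Its second probe gave -1.42 and was not called as a dip, and non-germ cells held Grb10 at 14.14 and 14.43.

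Igf2, Phlda2 and Usp29, further genes of the list picked after their values were seen, were not dips. Slc22a18, outside the list and also picked after its values were seen, was a dip (contrast -1.99 ± 0.23, limma adjusted p = 0.000422). Its second probe gave -0.28 and was not called. The growth factor Igf2 was at 9.27, 7.66 and 7.99 in E11.5 cells, 5.60, 5.59 and 6.45 in E13.5 cells, and 7.83, 11.23 and 7.49 in E15.5 cells, the highest of these in E15.5 replicate 2 (contrast -2.70 ± 0.75, limma adjusted p = 0.0261). Phlda2, an imprinted growth regulator, fell once, with 11.19, 11.56 and 10.92 in E11.5 cells, 7.91, 7.91 and 8.05 in E13.5 cells, and 8.33, 8.08 and 8.30 in E15.5 cells. Usp29, the 1 higher gene, was at 6.67, 6.30 and 7.37 in E11.5 cells, 8.12, 8.03 and 8.74 in E13.5 cells, and was undetected at E15.5; it missed the test for a peak (adjusted p = 0.0635).

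The remaining large dips spanned transcription, cytoskeleton and metabolism. Dlx3, a distal-less homeobox factor, was at 9.48, 10.25 and 9.69 in E11.5 cells, 6.26, 6.70 and 7.16 in E13.5 cells, and 10.94, 10.87 and 11.41 in E15.5 cells, 8.55-fold and 20.6-fold lower than at the flanks, with detection on 2 of 3 E13.5 arrays (limma adjusted p = 2.34e-05). Bcat1, the cytosolic branched-chain aminotransferase, was at 8.40, 9.05 and 7.74 in E11.5 cells, 5.82, 6.07 and 5.92 in E13.5 cells, and 10.12, 9.81 and 10.12 in E15.5 cells. Slc5a5, the sodium-iodide symporter, was at 12.25, 12.54 and 12.70 in E11.5 cells, 8.41, 9.09 and 9.0 in E13.5 cells, and 11.22, 10.88 and 10.98 in E15.5 cells. It recovered only in part, since E15.5 stayed below E11.5 by 1.47 on the log2 scale (difference -1.47, 95% interval -1.95 to -0.99).

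Ceacam10, a carcinoembryonic antigen family protein, was at 9.46, 9.57 and 9.50 in E11.5 cells, 6.63, 7.03 and 6.95 in E13.5 cells, and 9.86, 9.72 and 9.97 in E15.5 cells (contrast -2.81 ± 0.13, limma adjusted p = 1.09e-05). Neither non-germ array detected Ceacam10, and 1 of 2 detected Slc5a5. Among regulators of the actin cytoskeleton, Cyria, which binds Rac1, was at least 5.07-fold lower than at E11.5 and 4.8-fold lower than at E15.5, and Fblim1, an adaptor at cell adhesions, at least 3.79-fold and 6.73-fold lower, both undetected at E13.5. Cdc42ep3, an effector of Cdc42, was at 10.37, 9.97 and 9.71 in E11.5 cells, 6.97, 7.19 and 6.99 in E13.5 cells, and 10.24, 11.34 and 10.31 in E15.5 cells. Fblim1 and Cdc42ep3 were higher in non-germ cells, at 10.58 and 10.45 and at 12.10 and 12.20, than on any germ cell array.

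Vegfa, the angiogenic growth factor, was at 9.29, 9.40 and 9.84 in E11.5 cells, 5.08, 6.0 and 7.28 in E13.5 cells, and 8.10, 9.69 and 8.81 in E15.5 cells. Its E13.5 arrays spread widely, its second probe gave -1.07, and the dip was lost without E15.5 replicate 2 (adjusted p = 0.0567). Dusp8, a phosphatase of stress-activated kinases, and Pxylp1, a phosphatase of proteoglycan synthesis, had contrasts of -2.84 ± 0.35 and -2.57 ± 0.29. The adhesion receptor Celsr3 was undetected at E13.5 and at least 1.68-fold below E11.5 and 3.3-fold below E15.5. The histone gene H2bc4 was likewise undetected at E13.5 and at least 3.39-fold below E11.5 and 2.24-fold below E15.5. Plvap, an endothelial membrane protein, was undetected at E13.5, and its bounds were only 1.09-fold and 1.05-fold.

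**Figure D3:**
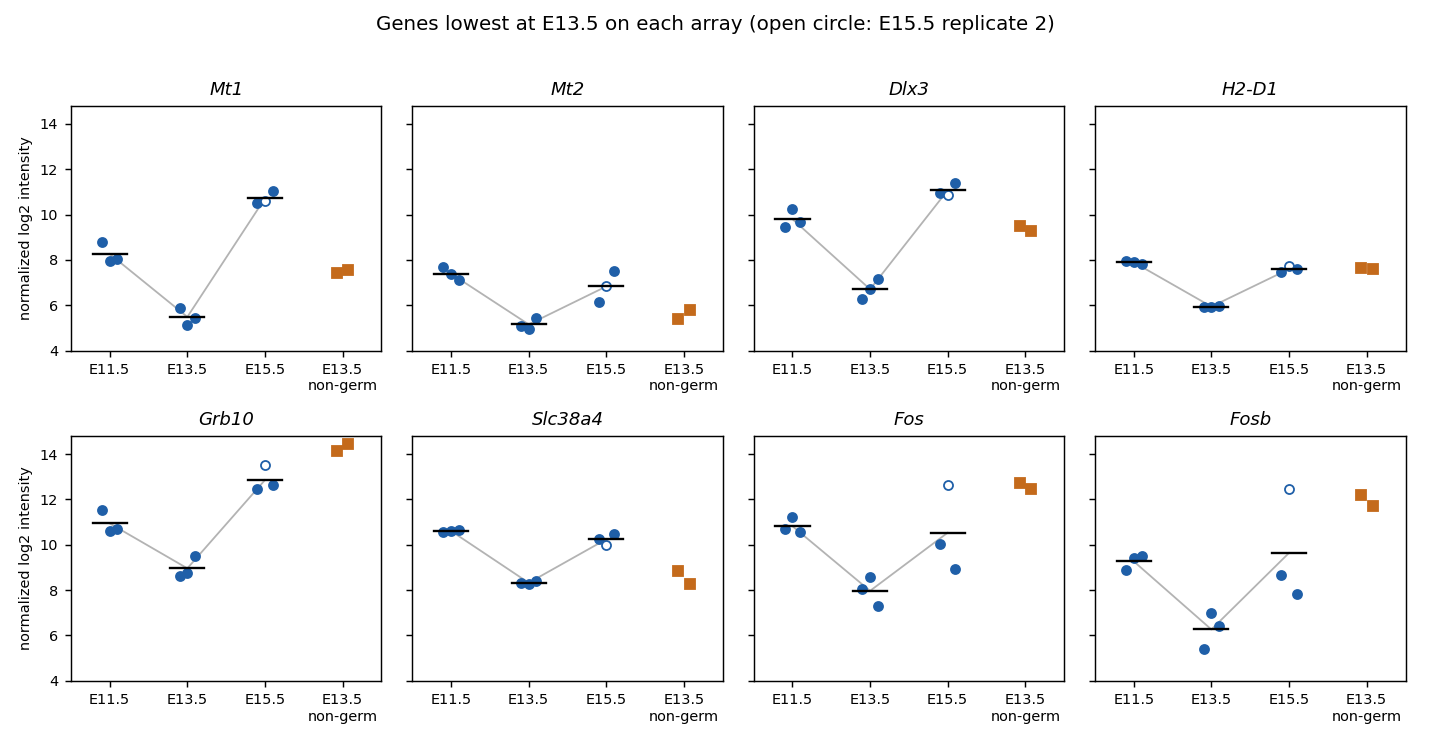
Normalized log2 intensity (y axis) of 8 genes on each array by stage, with germ cells as blue circles (open for E15.5 replicate 2), non-germ cells as orange squares and black bars at the germ cell stage means. The first 6 genes are dips in which the 3 E13.5 arrays lie lowest; Fos and Fosb are not dips, and their highest germ cell value is E15.5 replicate 2.

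Among 14 measured immediate early and heat shock genes 8 were called lower at E13.5 (beside 12.8% of all genes tested), 0 were called higher and 0 were dips; 12 had their E13.5 mean below both flanks, and the median contrast was -0.92. Fos, a subunit of AP-1 picked with Fosb after their values were seen, was at 10.68, 11.21 and 10.58 in E11.5 cells, 8.03, 8.56 and 7.31 in E13.5 cells, and 10.04, 12.63 and 8.93 in E15.5 cells (contrast -2.71 ± 0.67, limma adjusted p = 0.016). Fosb, its close relative, was at 8.88, 9.42 and 9.51 in E11.5 cells, 5.41, 6.97 and 6.41 in E13.5 cells, and 8.66, 12.44 and 7.83 in E15.5 cells. E15.5 replicate 2 was the highest germ cell array for both, near the non-germ values of 12.71 and 12.48 for Fos and 12.21 and 11.71 for Fosb. Leaving out E13.5 replicate 1, 2 or 3 left 1, 3 and 2 lower calls, with medians of -0.93, -0.92 and -1.06, and the authors' deposited values gave 4 and a median of -0.42. Over all genes tested, leaving out these arrays left 979, 746 and 789 lower, and the deposited values gave 1126, against 1269 as reported. Without E15.5 replicate 2, 7 of 13 were lower, the median was -0.74, and 2 became dips, Fosb (adjusted p = 0.0481) and Jun (adjusted p = 0.00576). Markers of interstitial cells were higher on the same array, as given above, and their part in these values was not tested.

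Of 25 measured mitosis genes 11 were called higher (beside 14.4% of all genes tested) and 0 lower, 15 had their E13.5 mean above both flanks, 0 were peaks, and the median contrast was 0.50. Ccnb2, cyclin B2, was at 7.0, 7.37 and 6.94 in E11.5 cells, 7.70, 7.87 and 7.24 in E13.5 cells, and was lower at E15.5 (5.76, 5.43 and 5.42), so that its contrast of 1.28 ± 0.18 (limma adjusted p = 0.00114) came mainly from E15.5. Ect2, the exchange factor of cytokinesis, was at 10.99, 10.91 and 10.67 in E11.5 cells, 11.76, 11.38 and 11.62 in E13.5 cells, and 10.32, 10.02 and 10.21 in E15.5 cells, just short of a peak (adjusted p = 0.0689) and past the threshold without E15.5 replicate 2 (adjusted p = 0.0474). Over the alternative settings 8 to 15 mitosis genes were higher and at most 1 lower.

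In the other lists, shares called are to be read beside the 14.4% of all genes tested that were higher and the 12.8% that were lower. In oxidative phosphorylation 8 of 28 genes were higher and 0 lower, in DNA replication 6 of 31 were higher and 1 lower, and in Polycomb and histone methylation 7 of 24 were higher and 1 lower, with no peak or dip, beside 0.949% and 0.848% of all genes. Leaving out E13.5 replicate 1, 2 or 3 left 2, 3 and 1 higher in oxidative phosphorylation, 3, 4 and 3 in DNA replication, and 3, 2 and 1 in Polycomb and histone methylation. Over all genes tested, leaving out these arrays left 865, 761 and 736 higher, against 1428 with all arrays. Glycolysis had 2 of 15 higher and 5 lower, and DNA methylation 2 of 12 higher and 4 lower. Among cell cycle inhibitors and pocket proteins 4 of 14 were higher and 3 lower, and Cdkn1a, an inhibitor of cyclin-dependent kinases, gave 0.44 ± 0.21 (limma adjusted p = 0.141). The inhibitor Cdkn2b was not tested because too few arrays detected it.

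**Figure D4:**
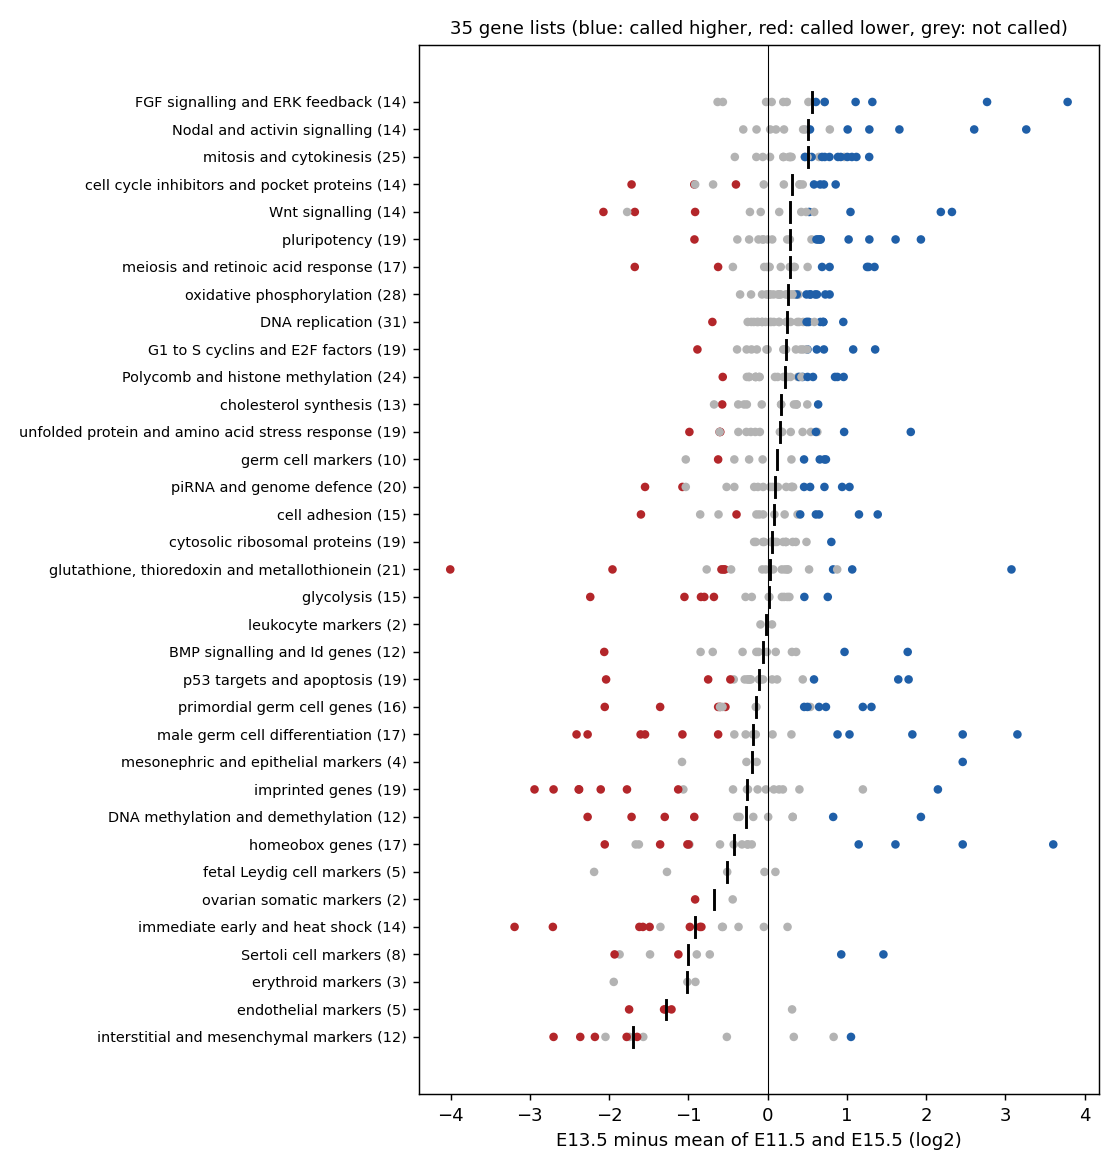
Contrast of E13.5 against the mean of E11.5 and E15.5 (x axis, log2) for each measured member of 35 gene lists (y axis, number of measured genes in brackets), with a black bar at the list's median. The FGF, Nodal and mitosis lists have the highest medians (0.56, 0.51 and 0.50), the interstitial and endothelial marker lists the lowest (-1.69 and -1.29), and the immediate early list is at -0.92.

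Levels in the GFP-negative cells differed between peaks and dips. These arrays took no part in the tests. Of the 94 peaks 39 were undetected on both non-germ arrays (41.5%, beside 11.6% of all genes tested), and 8 had a higher mean there than in E13.5 germ cells (8.51%, beside 39.4%). Of the 84 dips 12 were undetected in non-germ cells (14.3%), and 73 were higher there than in E13.5 germ cells (86.9%, beside 39.4%). Non-germ cells exceeded all 3 germ cell stages for 24 dips (28.6%, beside 25.1% of all genes tested). A gene that is low at E13.5 is more easily exceeded, so these shares are descriptions.

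Many genes with large contrasts changed only once. Irf2bpl, a transcriptional coregulator, was at 6.22, 5.76 and 5.98 in E11.5 cells, 9.83, 10.25 and 10.04 in E13.5 cells, and 10.01, 10.43 and 9.93 in E15.5 cells, and the zinc finger gene Bnc2 rose in the same way (contrasts 1.99 ± 0.17 and 1.88 ± 0.15). Ap3b2, an adaptor subunit of vesicle traffic, was level until E13.5 and lower at E15.5 (1.85 ± 0.14). Vwf, the blood clotting factor, and Sohlh1, a transcription factor of spermatogonia, appeared at E15.5, where Vwf was at least 14.3-fold and Sohlh1 48-fold above E13.5, so that E13.5 was lower than the flanking mean without a dip.

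Cwc27, a spliceosomal protein, Orc3, of the origin recognition complex, and Zfyve9, which presents SMAD proteins to their receptor, were the peaks closest to the limit of 0.05, with adjusted p-values of 0.0473, 0.0479 and 0.0479. Ogt, the O-GlcNAc transferase, Ube2d1, a ubiquitin-conjugating enzyme, and Ap3m1, an adaptor subunit, were the first genes past that limit, with 0.053, 0.0548 and 0.0548. The last dips were Tspan6, Crip2 and Cd164l2 (each 0.0464), and the first genes outside were Pmp22, Cotl1 and Clstn3 (0.0548, 0.0549 and 0.0568). Their contrasts ran from 0.94 to 1.53 for the 3 peaks and were 0.67, 0.98 and 0.84 for the genes outside.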

How the data were processed

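RNA had been amplified from 10 ng and biotin-labelled per the labels. Per the file headers, the deposited non-normalized table gives each probe's signal intensity per array on a linear scale, and the authors' detection p-value beside it. A second table by the authors holds rescaled intensity values and was used as an alternative. In R 4.3.3 with limma 3.58.1, neqc normalized all 11 arrays (background from detection p-values, offset 16, quantile, log2). Of 45281 probes, 34885 had 1 symbol in the platform annotation, 18 several and 10378 none, and 99.8% of named probes matched an Entrez number in RefSeq. Kept were 18267 probes detected on at least 3 of the 9 germ cell arrays. The 3119 of them without 1 symbol were left out, and the probe of highest mean stood for each of 9900 genes, 3634 of which had more than 1 probe.

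One limma model with 3 stage means was fitted to the 9 germ cell arrays. All p-values are two-sided and Benjamini-Hochberg adjusted over all genes tested. Where a stage had no array that detected a gene, "at least" folds are set against, on each array, the higher of the lowest detected value and the gene's own. Replicate numbers did not pair the samples (correlation of deviations -0.12 to 0.14 for equal numbers, -0.21 to 0.23 for others). The fit was tested on simulated data. Named genes are the 10 largest peaks and dips detected at every stage, the 6 largest bounds each way, up to 2 peaks and 2 dips per list (or the smallest p), genes at the threshold, single-step genes and some preset ones; all others named, such as Tgif1, Id1, B2m, Tapbp, Igf2, Phlda2, Usp29, Fos and Fosb, were picked as examples after their values were seen. The 35 gene lists and all comparisons were chosen with earlier results of these data known.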

Additional observations from a re-analysis of the deposited data

How the results depend on the processing

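Leaving out each germ cell array in turn gave 736 to 1710 genes higher and 746 to 1222 lower, 286 to 406 and 416 to 562 of them at least 2-fold, 27 to 132 peaks and 40 to 117 dips. Leaving out E13.5 arrays gave the fewest peaks, with 34, 27 and 28 without replicates 1, 2 and 3, and leaving out E11.5 arrays gave 55, 53 and 52. Scaling to equal medians raised the genes called at least 2-fold higher to 516; it shifted the median contrast of all genes by 0.12, and higher genes made up 59.9% of calls, against 41.5% with cyclic loess and 52.9% as reported. The authors' deposited values called 38 genes at least 2-fold higher and 66 lower. Array weights gave 181 peaks and 171 dips. Asking that both pairwise differences be called separately gave 318 peaks and 279 dips. With the replicate number as a block there were 63 peaks and 65 dips, against 94 and 84, with 1263 genes higher and 1175 lower; deviations of same-numbered arrays correlated at r = -0.117 to 0.139 and not every array correlated best with its own number, so the numbers were not taken to pair arrays, and every count stayed within 1.5 times. The cause of these moves was not tested. Over 91 named genes and 20 settings, 1784 of 1806 contrasts kept direction and side of the threshold, 18 lost and 4 gained the call, and 0 reversed. Of 48 named peaks and dips 22 were called in every setting, and 12 in fewer than 12 of 20, Cthrc1, Vegfa, Trib3, Bik, Mt2 and Rpl22 among them. The slide as a block was not run, since the headers give none. Low signal limits genes undetected at a stage to bounds.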
